A study of Mus musculus with 8 samples.

Results

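Cholesterol genes were examined in spleen cells of leukemic mice that carried a truncated or a full-length form of the leukemia fusion CBFb-SMMHC, a product of a chromosome inversion in human leukemia that fuses the RUNX1 partner CBFb with smooth muscle myosin. A list of 30 genes of cholesterol synthesis, its control by SREBP and the removal of sterols by LXR was followed, and 27 of them had a probe set that the platform annotation pairs with that symbol alone, out of 18193 genes on the array. Where a gene had several, the one with the highest mean of the 8 arrays stands for it. Acat2, Nr1h2 and Soat1 were not analysed here. Of cholesterol uptake the list holds only a regulator, Mylip, so the values describe synthesis, sensing and efflux rather than uptake.

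The truncated group was CBFb-SMMHCd179-221, whose deletion removes a segment for high-affinity binding of RUNX1, in leukemic chimeric mice sampled 3 weeks after birth with no ENU named in their labels. The full-length group was CBFb-SMMHC in leukemic mice sampled 2 months after the mutagen ENU, called chimeras in the sample labels and knock-in mice in the series text. Fusion form, ENU and age therefore cannot be told apart. Each group had 4 arrays from 2 animals, 1 array for animal 1 and 3 for animal 2. The series text speaks of 2 independent experiments per genotype, and the labels do not say which array belongs to which. The labels name no strain and no promoter or Cre, and the share of cells that carried a fusion is not known here.

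The arrays did not group as their animal labels say. Array 1 of animal 2 correlated with the array of animal 1 at 0.980 in truncated and 0.983 in full-length mice over 11417 genes. It correlated with arrays 2 and 3 of its own animal at 0.944 in truncated mice, and at 0.871 and 0.870 in full-length mice. Arrays 2 and 3 correlated at 0.997 in each genotype. Results are therefore given on the animal means, and also within array 1 of each animal and within arrays 2 and 3 of animal 2. Arrays 2 and 3 come from 1 animal per genotype and give a difference with no test.

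Marker levels of several cell types differed between these sets. The leukocyte marker Ptprc was at 10.3 to 10.8 log2 units in truncated and 8.35 to 9.58 in full-length arrays, and the progenitor marker Cd34 at 5.23 to 7.48 in truncated arrays and 3.32 to 5.28 in full-length arrays, where both number 1 arrays lay below the median of all probe sets, 4.75. Of the 6 leukocyte and progenitor markers 5 had higher values in truncated mice, while Kit was at 6.63 to 9.96 in truncated and 7.46 to 10.4 in full-length arrays (difference -0.57), and the arrays overlapped for Kit, Cd34, Cd33 and Spi1. The median of 13 measured erythroid markers of 15 was higher in the number 1 arrays of both genotypes. In truncated mice it was at 9.15 and 9.45 in the number 1 arrays, and at 8.31 and 8.35 in arrays 2 and 3. In full-length mice it was 10.8 in both number 1 arrays and 8.29 to 8.32 in arrays 2 and 3. The median of 5 primary granule genes was 11.3 to 11.7 in truncated arrays, against 4.77 to 5.12 in the number 1 arrays and 10.4 in arrays 2 and 3 of full-length mice. That of 7 secondary granule genes was 10.7 to 11.3 in truncated arrays. In full-length mice it was 6.06 to 6.26 in the number 1 arrays and 8.89 to 8.92 in arrays 2 and 3. Monocyte and macrophage markers (16 of 17 measured) had medians of 8.03 to 8.19 in truncated and 5.47 to 6.68 in full-length arrays. Proliferation genes (17 of 18 measured) had medians of 9.82 to 10.02 in truncated and 9.35 to 9.99 in full-length arrays. B cell markers (7 of 8 measured) had medians of 4.91 to 6.35 in truncated and 4.47 to 4.78 in full-length arrays. Medians of plasma cell markers (6 of 6) were 4.996 to 5.72 in full-length arrays. In truncated mice they were 5.05 and 5.34 in the number 1 arrays, and 8.10 and 8.12 in arrays 2 and 3. T cell markers (6 of 7) had medians of 4.96 to 5.42 in truncated and 5.05 to 5.41 in full-length arrays. In such mixed tissue, fewer cells of a type and less RNA per cell cannot be told apart, and the part of these cell types in the differences below was not tested.

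Cells make cholesterol from acetyl-CoA through the mevalonate steps, which end in farnesyl diphosphate, and the sterol steps, which begin when squalene synthase joins farnesyl units. When membrane sterol is low, SCAP carries the SREBP factors from the endoplasmic reticulum to be cut and released, and they switch on the enzymes. INSIG proteins hold SCAP back when sterol is plentiful. Oxysterols activate the LXR receptors, which switch on the export pumps ABCA1 and ABCG1. Dividing blood cells need the pathway for new membranes, and macrophages need export to clear engulfed lipid.

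SREBP binds sterol regulatory elements that commonly lie near CCAAT boxes, bound by NF-Y, and GC boxes, bound by Sp1. Promoter windows of 300 bases ran from 250 before to 50 after a start. They were taken from RefSeq (GRCm38.p6) for the 25 list genes found there, 22 of which were measured. The measured genes Fdft1, Sqle, Fdps, Stard4 and Abcg1 had no window there, so their promoters were not searched. The element was searched on both strands as TCACNCCAC. It occurred in 1 of 25 genes, Hmgcs1 (2.94% of the 34 windows of these genes, against 1.24% of all 32851 windows). The letters CCAAT occurred in 20 of 25 genes (61.8% of their 34 windows, against 37.4% of all windows). The GC box, searched as GGGCGG, occurred in 22 of 25 genes (76.5% of their windows, against 35.7% of all windows). The searched words overlap in no window shown here. Shown are the window that holds the element and those of the INSIG genes, whose values differed in opposite directions. Capitals mark the searched words in either orientation. The Hmgcs1 window lies at chr13:119690101-119690400 on the plus strand, that of Insig1 at chr5:28071162-28071461 on the plus strand, and the most upstream of 3 Insig2 windows at chr1:121332540-121332839 on the minus strand.
Hmgcs1: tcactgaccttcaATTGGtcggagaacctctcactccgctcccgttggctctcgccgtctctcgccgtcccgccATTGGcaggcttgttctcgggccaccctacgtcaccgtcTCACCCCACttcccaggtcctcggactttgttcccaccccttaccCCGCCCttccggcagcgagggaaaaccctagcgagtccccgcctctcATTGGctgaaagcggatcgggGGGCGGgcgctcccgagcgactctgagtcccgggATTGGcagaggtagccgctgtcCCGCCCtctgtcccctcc
Insig1: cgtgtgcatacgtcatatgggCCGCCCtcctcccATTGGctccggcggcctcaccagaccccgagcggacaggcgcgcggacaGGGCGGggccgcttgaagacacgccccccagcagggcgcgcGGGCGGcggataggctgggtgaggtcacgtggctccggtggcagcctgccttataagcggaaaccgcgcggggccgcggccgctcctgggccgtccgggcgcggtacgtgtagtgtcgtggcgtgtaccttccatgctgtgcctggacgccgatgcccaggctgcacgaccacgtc
Insig2: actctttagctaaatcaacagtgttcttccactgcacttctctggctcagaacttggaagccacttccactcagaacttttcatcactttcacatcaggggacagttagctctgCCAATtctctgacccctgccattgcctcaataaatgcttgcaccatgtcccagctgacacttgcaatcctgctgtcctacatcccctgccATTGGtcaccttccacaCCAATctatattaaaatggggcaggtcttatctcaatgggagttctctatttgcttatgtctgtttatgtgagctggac
The Hmgcs1 window holds 1 element, 4 CCAAT boxes and 3 GC boxes, the Insig1 window 1 CCAAT box and 3 GC boxes, and the Insig2 window 3 CCAAT boxes and no GC box.

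Over the list as a whole, the counts of differing genes lay near those of all genes. All 27 genes passed the filter on low values. On the animal means 11 had higher and 16 lower values in truncated mice, with a median difference of -0.09 log2 units, against -0.01 over all 11417 genes, and 21 of the 27 differed by less than 0.5 (77.8%, against 73.7% of all genes). None passed an adjusted p under 0.05 in limma (0 of 27, against 0% of all genes). At an unadjusted p under 0.05 there were 3 genes with higher values (Fdft1, Insig1 and Nr1h3, 11.1% of the list, against 8.81% of all genes) and 2 with lower values (Sqle and Insig2, 7.41%, against 5.29%). All arrays of the genotypes were apart for 3 genes with higher values (Ebp, Insig1 and Nr1h3, 11.1%, against 10.3%) and for 2 with lower values (Sqle and Insig2, 7.41%, against 8.74%). No gene's brightest probe set lay below 4.75 in every array.

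**Figure D1:**
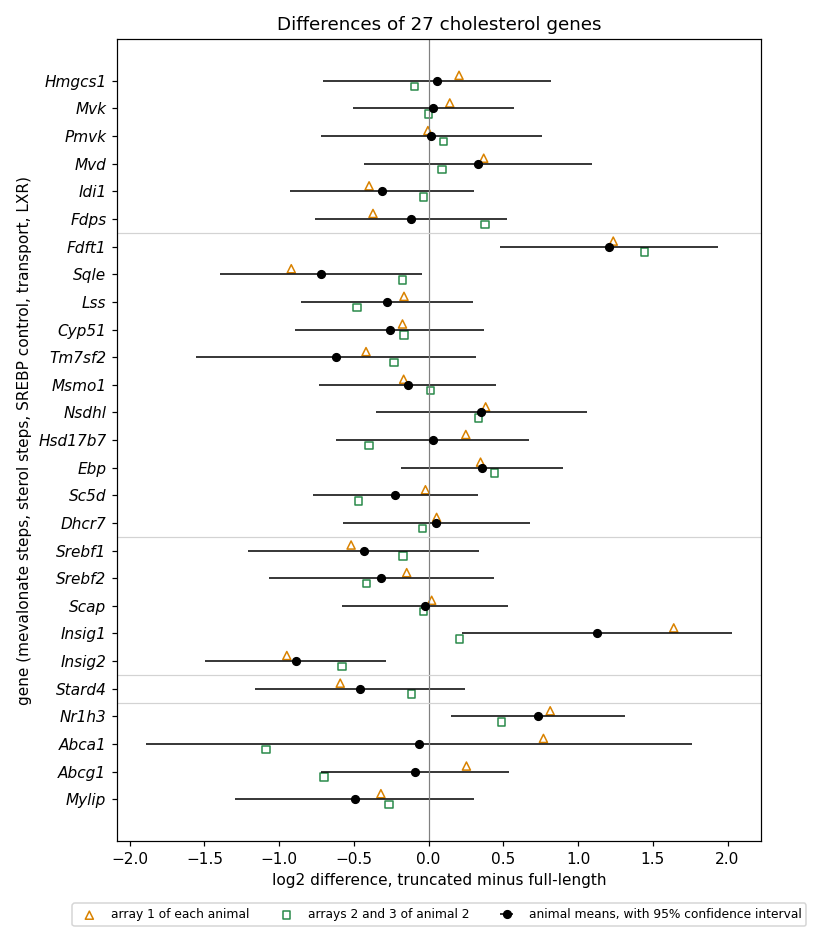
Log2 difference, truncated minus full-length, of the 27 genes in pathway order. Black points are animal means with the 95% confidence interval of limma, open triangles the difference in array 1 of each animal, open squares that in arrays 2 and 3 of animal 2. The intervals of Fdft1, Insig1 and Nr1h3 lie above 0 and those of Sqle and Insig2 below it, while none passed over all genes.

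The count of calls depended on which arrays were taken. With array 1 of each animal alone, which the labels give as 2 animals against 2, limma called 4 of the 27 genes higher (Insig1, Fdft1, Nr1h3 and Abca1, 14.8%, against 14.5% of all genes) and 3 lower (Sqle, Insig2 and Stard4, 11.1%, against 11.8%). With the animal and array number as a replicate block on all 8 arrays, it called Fdft1 and Nr1h3 higher (7.41%, against 5.17%) and Insig2 lower (3.70%, against 3.12%). That fit counts arrays of an animal as separate samples. With the animal number as a replicate block on the animal means, limma called none of the 27 genes (adjusted p = 0.0864 for Fdft1, 0.181 for Nr1h3 and 0.143 for Insig2). Since array 1 of animal 2 resembled the array of animal 1 more than the other arrays of its own animal, the number 1 arrays may not stand for 2 independent animals. Their p-values would then be too small. Within both array sets, the arrays of the genotypes were apart in the same direction for 5 genes with higher values (Fdft1, Nsdhl, Ebp, Insig1 and Nr1h3, 18.5%, against 14.6%). They were so for 3 genes with lower values (Sqle, Insig2 and Stard4, 11.1%, against 15%). The sign of the difference was the same in both sets for 17 of the 27 genes (63%, against 57.4% of all genes).

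**Figure D2:**
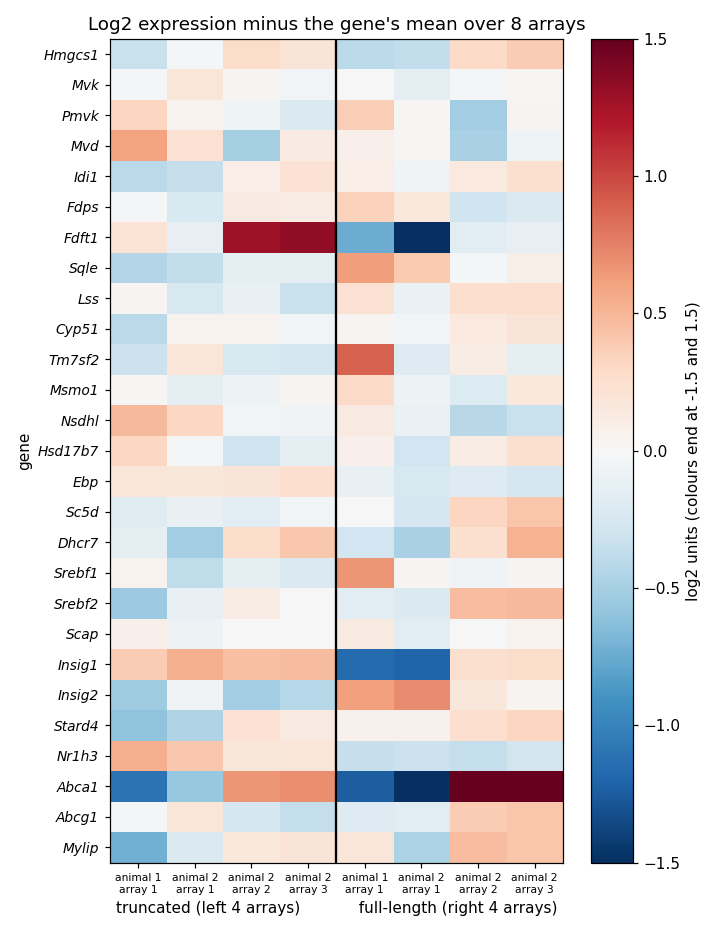
Log2 expression of the 27 genes in each array, minus the gene's mean over the 8 arrays, with the 4 truncated arrays on the left and the 4 full-length arrays on the right. Colours end at 1.5 log2 units in either direction. Fdft1 is red in arrays 2 and 3 of truncated mice, Insig1 is blue in the number 1 arrays of full-length mice alone, and Abca1 is low in the number 1 arrays and high in arrays 2 and 3 of both genotypes.

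The 6 measured genes of the mevalonate steps differed little between the genotypes by their brightest probe sets. Their differences ran from -0.31 to 0.33, with a median of 0.02, and their list median per array lay between 7.13 and 7.29 in truncated and between 6.99 and 7.41 in full-length arrays. Hmgcs1, which makes HMG-CoA, was at 7.68 in animal 1 and at 7.999, 8.30 and 8.21 in animal 2 of the truncated mice. In full-length mice it was at 7.62 and at 7.66, 8.30 and 8.40. The groups overlapped, and the difference of 0.06 had a 95% interval of -0.71 to 0.82 (limma, adjusted p = 0.962). In both genotypes the number 1 arrays were the lower ones. Mvk, the mevalonate kinase, averaged 5.85 ± 0.06 in truncated and 5.81 ± 0.04 in full-length mice (SD, n = 2 animals each), with an interval of -0.51 to 0.57. Its second probe set was nearly as bright, at 5.77 to 6.40 in truncated and 5.48 to 5.80 in full-length arrays. It differed by 0.50 (limma over all probe sets, adjusted p = 0.620), with 0.57 in the number 1 arrays and 0.07 in arrays 2 and 3. Pmvk, the kinase of the next step, averaged 6.95 ± 0.28 in truncated and 6.93 ± 0.37 in full-length mice. Mvd, which removes the carboxyl group to give isopentenyl diphosphate, averaged 5.86 ± 0.46 in truncated and 5.53 ± 0.18 in full-length mice. For these 3 enzymes the arrays of the genotypes overlapped. Idi1, the isomerase of that product, was at 7.31 to 7.94 in truncated and 7.67 to 7.96 in full-length arrays. Its other probe set differed by -0.91, with the array of truncated animal 1 at 4.89 and the other arrays at 6.33 to 6.88. Fdps, which makes farnesyl diphosphate, averaged 7.96 ± 0.01 in truncated and 8.08 ± 0.33 in full-length mice. Its difference was -0.37 in the number 1 arrays and 0.38 in arrays 2 and 3, so its direction was opposite in the 2 sets.

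At the branch into sterols, the enzymes of the first 2 committed steps differed in opposite directions. Fdft1 (squalene synthase) had the largest difference of the 27 genes on the animal means, and Sqle (squalene epoxidase), the next enzyme, was on the other side. Fdft1 was at 8.09 in truncated animal 1 and at 7.76, 9.16 and 9.21 in truncated animal 2, against 7.15 in full-length animal 1 and 6.23, 7.72 and 7.77 in full-length animal 2. The lowest truncated array was close to the highest full-length arrays, and within each array set the groups were apart. The animals averaged 8.40 ± 0.44 in truncated and 7.19 ± 0.07 in full-length mice, a difference of 1.21 (SE 0.29, interval 0.48 to 1.93), 2.31-fold (limma, adjusted p = 0.169). The small SD of the full-length animals hides a range of 1.54 between their arrays, because the 3 arrays of animal 2 were averaged. In the number 1 arrays the difference was 1.24 (limma, adjusted p = 0.000785), and in arrays 2 and 3 it was 1.45. With the replicate block on 8 arrays it was 1.34 (limma, adjusted p = 0.0119). Without the 2 number 1 arrays of full-length mice, which leaves their animal 2 alone, it was 0.66 (limma, adjusted p = 0.475).

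Fdft1 has 4 probe sets, and they did not all show this difference. With their mean in place of the brightest, it was 0.66 (limma, adjusted p = 0.273), smaller than the difference of Insig1. The brightest was described above. The second was at 7.72, 7.79, 9.20 and 9.20 in truncated arrays, against 6.24, 6.42, 8.02 and 8.07 in full-length arrays, with a difference of 1.35 (limma over all probe sets, adjusted p = 0.531). Both bright probe sets were high in arrays 2 and 3 and low in the number 1 arrays of each genotype. The dim pair differed little. The third was at 5.05 to 5.58 in truncated and 5.30 to 5.51 in full-length arrays, a difference of -0.05. The fourth was at 4.78 to 5.11 in truncated and 4.86 to 4.91 in full-length arrays, a difference of 0.12. The brightest and the fourth have the suffix x_at, which marks probe sets that can match related sequences, while the second has not.

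Sqle, a rate-controlling oxygenase, was at 7.46 in animal 1 and 7.52, 7.76 and 7.75 in animal 2 of the truncated mice. It was at 8.53 in animal 1 and 8.29, 7.87 and 7.99 in animal 2 of the full-length mice. All truncated arrays were below all full-length arrays. The difference was -0.72 (SE 0.27, interval -1.39 to -0.05; limma, adjusted p = 0.325), a 1.65-fold lower value in truncated mice. It was -0.92 in the number 1 arrays (limma, adjusted p = 0.00240), -0.17 in arrays 2 and 3 and -0.36 without the number 1 arrays of full-length mice.

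**Figure D3:**
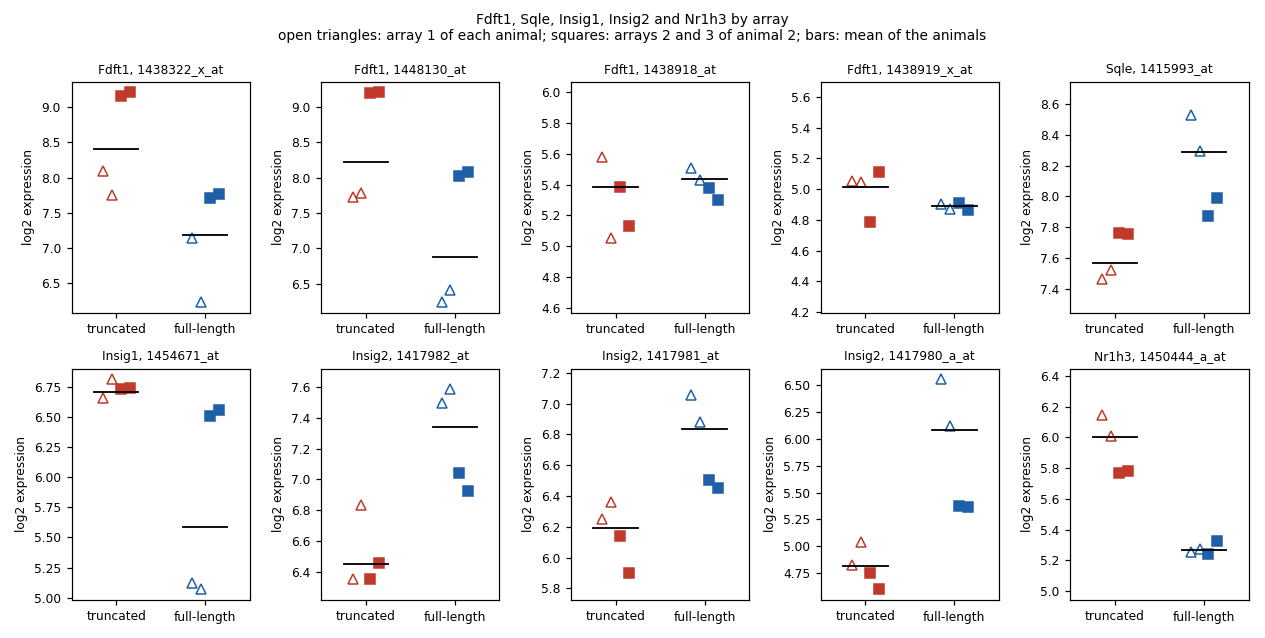
Log2 expression per array of the 4 probe sets of Fdft1, the 3 of Insig2 and the single ones of Sqle, Insig1 and Nr1h3, truncated on the left and full-length on the right of each panel. Open triangles are array 1 of each animal, filled squares arrays 2 and 3 of animal 2, and bars the mean of the 2 animals. The dim Fdft1 probe sets overlap between genotypes, the 3 Insig2 probe sets are all lower in truncated arrays, and the full-length arrays of Insig1 fall into a low and a high pair.

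The later sterol enzymes showed mostly small differences, in both directions. Lss, which closes the ring to lanosterol, was at 6.34 to 6.71 in truncated and 6.58 to 6.93 in full-length arrays. The dimmest of its 3 probe sets was at 3.23 to 4.02 in truncated and 3.75 to 5.85 in full-length arrays. It differed by -0.84, with -0.43 in the number 1 arrays and -1.74 in arrays 2 and 3. Cyp51, the lanosterol demethylase, was at 5.62 to 6.08 in truncated and 5.99 to 6.22 in full-length arrays, with a difference of -0.26. Msmo1, a C4-methyl oxidase, averaged 6.91 ± 0.05 in truncated and 7.05 ± 0.23 in full-length mice (SD, n = 2 animals each). Their arrays overlapped in each case. Tm7sf2, a sterol reductase, averaged 4.94 ± 0.16 in truncated and 5.56 ± 0.68 in full-length mice, a difference of -0.62. Its full-length value rested on animal 1 at 6.04, with its other arrays between 4.97 and 5.27. Hsd17b7, the C4 ketoreductase, averaged 6.35 ± 0.33 in truncated and 6.32 ± 0.04 in full-length mice. Its direction was opposite in the sets, with 0.25 in the number 1 arrays and -0.40 in arrays 2 and 3. Sc5d, the desaturase, averaged 7.05 ± 0.06 in truncated and 7.27 ± 0.12 in full-length mice, with a difference of -0.02 in the number 1 arrays and -0.47 in arrays 2 and 3. Dhcr7, the last reductase of one branch, averaged 7.76 ± 0.14 in truncated and 7.71 ± 0.26 in full-length mice. For Dhcr7 the 95% interval of the difference was -0.58 to 0.68.

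Ebp and Nsdhl were the later enzymes with higher values in truncated mice in both array sets. Ebp, the sterol isomerase, was at 8.65, 8.64, 8.66 and 8.72 in truncated arrays, against 8.36, 8.23, 8.27 and 8.22 in full-length arrays. The 4 truncated arrays lay in a span of 0.08 log2 units, above every full-length array. The difference of 0.36 (SE 0.21, interval -0.18 to 0.90) did not pass (limma, adjusted p = 0.554). It was 0.35 in the number 1 arrays and 0.44 in arrays 2 and 3, and between 0.30 and 0.45 in every fit tried. Nsdhl, the C4 decarboxylase, was at 8.13, 7.96, 7.61 and 7.59 in truncated arrays, against 7.78, 7.54, 7.23 and 7.31 in full-length arrays. The genotypes overlapped because arrays 2 and 3 were lower than the number 1 arrays in each. Its difference was 0.38 in the number 1 arrays and 0.33 in arrays 2 and 3 (0.35 on the animal means; limma, adjusted p = 0.677).

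Of the genes that control SREBP, the 2 INSIG genes differed in opposite directions, and none of the 5 genes passed on the animal means. Insig1, itself an SREBP target, was at 6.66, 6.81, 6.73 and 6.75 in truncated arrays. In full-length arrays it was at 5.12 in animal 1 and at 5.07, 6.51 and 6.56 in animal 2. The full-length arrays formed a low and a high pair, and all 4 lay below the truncated arrays. The difference was 1.13 (SE 0.36, interval 0.22 to 2.03), 2.18-fold (limma, adjusted p = 0.262). It was 1.64 in the number 1 arrays (limma, adjusted p = 2.51e-06), 0.20 in arrays 2 and 3, and 0.18 without the number 1 arrays of full-length mice (limma, adjusted p = 0.852). Without full-length animal 2, which holds the high pair and leaves that genotype 1 array, it was 1.59. The 2 low arrays are those with erythroid marker medians of 10.8 and primary granule medians of 4.77 to 5.12. The part of these cell types in the Insig1 difference was not tested.

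Insig2, which in mouse liver is known to be held low by insulin and not driven by SREBP, had lower values in truncated mice by all 3 of its probe sets. The brightest was at 6.35, 6.83, 6.35 and 6.46 in truncated arrays, against 7.49, 7.59, 7.04 and 6.92 in full-length arrays. No arrays overlapped. The difference was -0.89 (SE 0.24, interval -1.497 to -0.28), 1.85-fold lower in truncated mice (limma, adjusted p = 0.202). It was -0.95 in the number 1 arrays (limma, adjusted p = 0.00262), -0.58 in arrays 2 and 3, and -0.76 with the replicate block (limma, adjusted p = 0.0387). The other probe sets differed by -0.64 and -1.27, and their arrays did not overlap either.

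Srebf1, which encodes SREBP-1, was at 8.65 to 9.08 in truncated and 8.97 to 9.69 in full-length arrays. The full-length array of animal 1 was the high one, and the groups overlapped by the array of truncated animal 1. Srebf2, which encodes the factor that chiefly drives cholesterol synthesis, averaged 7.67 ± 0.39 in truncated and 7.98 ± 0.29 in full-length mice (SD, n = 2 animals each). The difference was -0.32 (limma, adjusted p = 0.744), with -0.15 in the number 1 arrays and -0.42 in arrays 2 and 3. Its second probe set, nearly as bright, differed by -0.35 (limma over all probe sets, adjusted p = 0.787), with -0.20 and -0.76 in the same sets. Within each set its truncated arrays were the lower ones, while over all arrays the genotypes overlapped. Scap, the escort of both factors, averaged 9.10 ± 0.08 in truncated and 9.12 ± 0.13 in full-length mice, and the interval of its difference was -0.58 to 0.53. A second, dim Scap probe set was lower in all truncated arrays, at 3.64 to 4.19 against 4.27 to 4.53 in full-length arrays (difference -0.55). Stard4, a sterol carrier and SREBP target, was at 7.41, 7.57, 8.23 and 8.15 in truncated arrays, against 8.08, 8.08, 8.27 and 8.34 in full-length arrays. Its difference was -0.46 on the animal means (limma, adjusted p = 0.564), -0.59 in the number 1 arrays (limma, adjusted p = 0.0468) and -0.12 in arrays 2 and 3. Its other 2 probe sets differed by -0.55 and -0.48.

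Of the LXR genes, the receptor Nr1h3 (LXR alpha, known from macrophages and liver) had higher values in every truncated array than in any full-length array. It was at 6.15, 6.01, 5.77 and 5.78 in truncated arrays, against 5.25, 5.28, 5.24 and 5.33 in full-length arrays. The full-length arrays lay within 0.09 of each other. The difference was 0.73 (SE 0.23, interval 0.15 to 1.31), 1.66-fold (limma, adjusted p = 0.257). It was 0.81 in the number 1 arrays (limma, adjusted p = 0.00611), 0.49 in arrays 2 and 3 and 0.65 with the replicate block (limma, adjusted p = 0.0378). It was 0.71 without the number 1 arrays of full-length mice. Of the 15 tested monocyte and macrophage markers, 12 were higher with no overlap of arrays, against 10.3% of all genes. The median difference of the 15 was 1.73, against -0.01 over all genes. The sign was the same in both array sets for 14 of them (93.3%, against 57.4% of all genes). Cx3cr1 was the exception, at 4.53 to 4.87 in truncated and 4.34 to 4.87 in full-length arrays. Their part in the Nr1h3 difference was not tested.

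The export pumps, which LXR is known to switch on, had no common direction over the array sets. Abca1 was at 6.67 in truncated animal 1 and at 7.21, 8.43 and 8.47 in truncated animal 2, against 6.54 in full-length animal 1 and 5.80, 9.54 and 9.54 in full-length animal 2. Its number 1 arrays were low and its arrays 2 and 3 high in both genotypes, with a range of 3.74 among the full-length arrays. On the animal means the difference was -0.06 (interval -1.89 to 1.76; limma, adjusted p = 0.983). It was 0.77 in the number 1 arrays (limma, adjusted p = 0.0283) and -1.09 in arrays 2 and 3, and the difference between the sets was not tested. The other 2 probe sets turned in the same way, with 0.53 and 0.82 in the number 1 arrays and -1.18 and -1.54 in arrays 2 and 3. Abcg1 averaged 8.96 ± 0.08 in truncated and 9.05 ± 0.29 in full-length mice (SD, n = 2 animals each), with a difference of 0.25 in the number 1 arrays and -0.70 in arrays 2 and 3. Its other probe set differed by -0.19 and -1.39 in the same sets, so it did not turn. Mylip, an LXR target whose product marks lipoprotein receptors for degradation, was at 7.46, 7.96, 8.33 and 8.37 in truncated arrays, against 8.36, 7.70, 8.63 and 8.60 in full-length arrays. It had a difference of -0.50 (limma, adjusted p = 0.591), and its arrays overlapped.

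**Figure D4:**
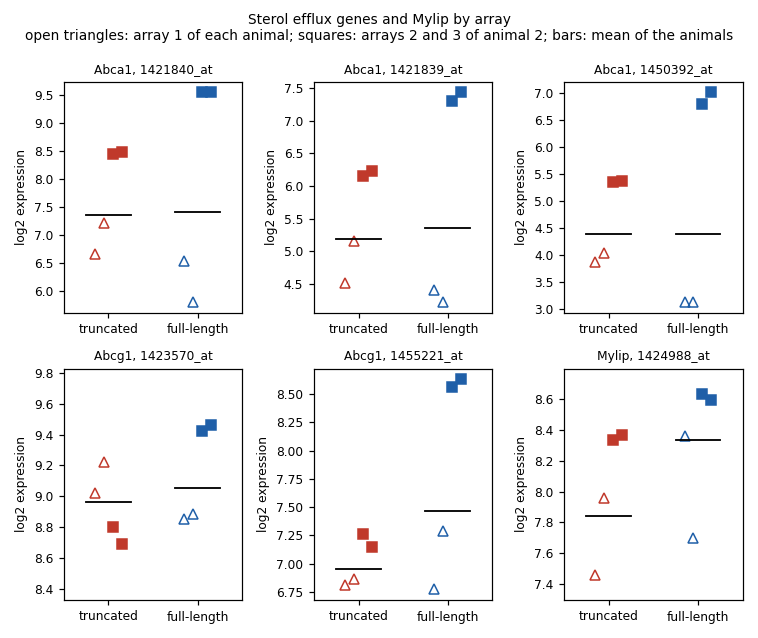
Log2 expression per array of the 3 probe sets of Abca1, the 2 of Abcg1 and the 1 of Mylip, truncated on the left and full-length on the right of each panel, with symbols for array 1 of each animal (open triangles), arrays 2 and 3 of animal 2 (squares) and the mean of the animals (bars). Abca1 is higher in truncated than full-length number 1 arrays and lower in truncated than full-length arrays 2 and 3.

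The probe sets of a gene mostly had the same sign. Of the 27 genes, 17 had several probe sets (57 in all with those of the other 10), and in 11 of these every probe set differed in the direction of the brightest. The other 6 were Abca1, Cyp51, Fdft1, Fdps, Hmgcs1 and Hsd17b7.

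Genes around the pathway were read from textbook lists. Of 12 tested fatty acid synthesis genes, 4 had higher and 8 lower values, with a median difference of -0.26, and 0 passed limma. At an unadjusted p under 0.05, 1 was higher and 3 lower (8.33% and 25%, against 8.81% and 5.29% of all genes). Elovl6, a fatty acid elongase, was at 6.92, 6.76, 6.92 and 7.22 in truncated arrays, against 4.04, 4.39, 5.82 and 5.91 in full-length arrays, a difference of 2.23 (limma, adjusted p = 0.133). All truncated arrays were above all full-length arrays. Acss2, which makes acetyl-CoA from acetate, went the other way, at 7.65 to 7.71 in truncated and 8.38 to 9.45 in full-length arrays, a difference of -1.39 (limma, adjusted p = 0.157). Fads1, a desaturase, differed by -0.997, with -1.76 in the number 1 arrays and 0.37 in arrays 2 and 3, so its direction was opposite in the sets.

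Of 6 tested genes for SREBP cutting and for degradation of sterol-regulated proteins, 5 had lower values (83.3%, against 51.5% of all genes), and 0 passed limma. At an unadjusted p under 0.05, 0 were higher and 1 lower (0% and 16.7%, against 8.81% and 5.29%). Rnf145, a ubiquitin ligase known to respond to sterols and LXR, was at 8.54 to 8.96 in truncated and 9.41 to 10.04 in full-length arrays, a difference of -1.07 (limma, adjusted p = 0.161). Mbtps1, the site-1 protease that cuts SREBP, differed by -0.47. Erlin2 differed by -0.41, with -0.52 in the number 1 arrays and 0.048 in arrays 2 and 3. Of 11 tested genes of the isoprenoid branches, 3 had higher and 8 lower values, and 0 passed limma. At an unadjusted p under 0.05, 0 were higher and 1 lower (0% and 9.09%, against 8.81% and 5.29%). Fntb, a subunit of farnesyl transferase, was at 6.54 to 6.66 in truncated and 6.87 to 8.30 in full-length arrays (difference -1.21; limma, adjusted p = 0.228). Nus1 differed by -0.55. Rabggtb differed by -0.65, with -0.96 in the number 1 arrays and 0.10 in arrays 2 and 3.

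Of 13 tested genes for lysosomal and membrane sterol handling, 10 had higher and 3 lower values, with a median difference of 0.29, and 0 passed limma. At an unadjusted p under 0.05, 2 were higher and 1 lower (15.4% and 7.69%, against 8.81% and 5.29%). Npc2, which binds cholesterol in the lysosome, was at 10.6 to 10.8 in truncated and 9.04 to 10.5 in full-length arrays, a difference of 1.03 (limma, adjusted p = 0.202). It was 1.48 in the number 1 arrays and 0.21 in arrays 2 and 3. Lrp1, an endocytic lipoprotein receptor, was at 7.27 to 7.78 in truncated and 6.61 to 7.06 in full-length arrays (difference 0.80; limma, adjusted p = 0.236). Gramd1b, a sterol carrier at membrane contacts, differed by -0.63. Of 5 oxysterol and bile acid enzymes only Cyp27a1 was tested, with a difference of 0.23 on the animal means, -0.20 in the number 1 arrays and 0.97 in arrays 2 and 3.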

How the data were processed

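Biotin-labelled total RNA of spleen cells was measured on 8 Affymetrix GeneChip 430 arrays, per the labels. The deposited values are log2 expression made with RMA, per the submitters' processing notes, with no version given. Base 2 follows from the range of the values. RMA corrects background, normalizes between arrays and summarises probes, which draws dim values together, and their differences are understated. The table holds 45101 probe sets, of which 34945 had 1 gene symbol. Probe sets with several symbols or none were left out. Arrays have no depth, and their number limits the precision.

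Arrays of an animal were averaged. The labels do not say whether they were separate extractions. Genes entered the fit if their value passed 4.75, the median of all probe sets, in 2 or more animals. The 11417 genes kept were fitted with limma 3.58.1 in R 4.3.3, with 2 residual and 3.24 prior degrees of freedom, and p-values were adjusted by Benjamini-Hochberg over all of them. Intervals are 95% from the moderated test. Every probe set (45037 without controls) was also tested alone. The fit was also run on simulated independent animals. That simulation held no array sets and no uneven number of arrays per animal, so it does not cover these features of the data.

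Deviations from the genotype means correlated between same-labelled arrays of the genotypes at 0.301, 0.145, 0.230 and 0.214. Pairs with other labels correlated at 0.161 and 0.124 within the number 1 arrays and at 0.219 and 0.228 within arrays 2 and 3. Pairs across these sets lay between -0.251 and -0.134. The deviations of a genotype cancel for each gene, so positive values within the sets force negative ones across them. Pairs with other labels within a set were also positive, so the match was largely one of array sets. These values do not single out the label. The fit with the array label as a block is given where it changed a call. No label says that the animals of a number share a litter or batch. The members, lists and alternatives were chosen with earlier results of these data known. All members were named, and of each neighbouring list up to 3 genes with the smallest p.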

Additional observations from a re-analysis of the deposited data

Results flagged for a closer look

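Of 54 groups of 4 arrays (27 genes in 2 genotypes), 3 held an array far from the others. Chance gives about 1 in 20 for independent arrays, which these are not, since 3 of each 4 come from 1 animal. Lss was at 6.58 in array 1 of full-length animal 2, with the other full-length arrays at 6.90 to 6.93. Tm7sf2 was at 5.34 in array 1 of truncated animal 2, with the other truncated arrays at 4.83 to 4.91. Srebf1 was at 9.69 in the array of full-length animal 1, with the others at 8.97 to 9.07.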

How the results depend on the processing

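Against 0 genes higher and 0 lower on the animal means (limma, adjusted p under 0.05; 1006 and 604 unadjusted), counts reached 264 and 81 with a random block for animals over 8 arrays, 226 and 37 with the animal number as a replicate block, 590 and 356 with the array label as a replicate block, 1659 and 1350 with 1 array per animal, and 2 and 1 with an intensity trend and robust prior. With all 4 animals required above the median, 1 gene was lower. Leaving out an animal or array gave 0 to 448 higher and 0 to 218 lower, the most without full-length animal 2, where its genotype had 1 array, assumed to vary like the rest. Among the 27 genes, the replicate block on 8 arrays changed the calls of Fdft1, Insig2 and Nr1h3 and no other, and the block on animal means changed none. Over 21 alternatives 17 of the 27 genes kept their sign. In the tested ones Fdft1 ranged over 0.66 to 1.52, Insig1 0.18 to 1.64, Insig2 -1.05 to -0.53, Nr1h3 0.58 to 0.88 and Sqle -0.96 to -0.36. The other 10 genes turned. With the mean of all probe sets, Hmgcs1 was -0.013, Fdps 0.0062 and Hsd17b7 -0.074. Without both erythroid-high full-length arrays, Hmgcs1 was -0.42, Fdps 0.25, Msmo1 0.0050, Hsd17b7 -0.10 and Dhcr7 -0.43, and Abca1, keeping its sign, -2.19. In arrays 2 and 3 alone, a setting chosen after seeing the data, Hmgcs1 was -0.10, Mvk -0.0022, Fdps 0.38, Msmo1 0.012, Hsd17b7 -0.40 and Dhcr7 -0.042. With 1 array per animal, Pmvk was -0.0049, Scap 0.020, Abca1 0.77 and Abcg1 0.25. With the array label as a replicate block, Fdps was 0.0024 and Hsd17b7 -0.075, and Hsd17b7 was -0.034 with the random block. With quantile normalization repeated, Scap was 0.045 and Abca1 0.0093. Leaving out an animal or array, Hmgcs1 ranged over -0.19 to 0.31, Mvk -0.011 to 0.076, Pmvk -0.24 to 0.28, Fdps -0.35 to 0.11, Msmo1 -0.30 to 0.022, Hsd17b7 -0.21 to 0.26, Dhcr7 -0.14 to 0.24, Scap -0.11 to 0.065, Abca1 -0.94 to 0.81 and Abcg1 -0.295 to 0.11. The cause was not tested. With 2 animals a genotype, small differences could not be resolved, and dim probe sets carry little signal over background.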
